A study of Drosophila melanogaster with 20 samples.

Results

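Head RNA of Drosophila melanogaster homozygous for ATM8, a temperature-sensitive allele of the fly ATM kinase gene, was set against that of ATM8/+ heterozygotes. These 2 genotypes were chosen by their sample titles and supply 4 of the 20 arrays in the series, 2 arrays each, and all 15473 transcript rows were compared as homozygote minus heterozygote. Both genotypes carried the label pp e1 as genetic background and lacked GAL4 and RNA interference transgenes, and the heterozygotes carry the mutant allele too, so that no sample here is free of ATM8. The flies grew at 18°C, were collected at 0 to 3 days after eclosion, and then spent 3 days at 25°C before total RNA was taken from heads. The other 16 arrays hold Repo-GAL4, Repo-ATMi, Elav-GAL4, Elav-ATMi, ElavC155-GAL4 and ElavC155-ATMi heads, from flies raised at 25°C on a w1118 background, collected and held on the same schedule and labelled as 4 to 6 days old, whereas the ATM8 labels state no such age. In the ATMi flies, ATM was knocked down by RNA interference under a glial (Repo) or neuronal (Elav, ElavC155) driver, and the GAL4 flies carried the driver alone.

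ATM is a protein kinase that is activated at DNA double-strand breaks and phosphorylates proteins of the checkpoint and repair machinery. In flies it is encoded by tefu, also protects telomeres from fusion, and its loss leads to degeneration in the brain. A temperature-sensitive allele such as ATM8 lets flies develop at a low temperature and lowers function after a shift to a higher one. The allele stands in the last field of the genotype label, with wild-type symbols in the fields before it. Any variants on the same chromosome are homozygous together with it and cannot be told apart from ATM8 in this contrast.

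Levels are log2 RMA values (Robust Multi-array Average, in which corrected and normalized probe signals are combined for each transcript), so that a difference of 1 unit is a 2-fold difference. The 4 ATM8 arrays had medians from 10.59 to 10.63. The medians of the 4 Repo arrays were lower without overlap, from 10.45 to 10.52, and those of the 12 Elav and ElavC155 arrays higher, from 10.84 to 10.93. The spread of values was similar in ATM8 and Repo arrays (SD over transcripts from 2.78 to 2.80) and wider in the neuronal driver arrays (2.95 to 2.99). The main shares of rises and falls lying beyond these arrays are therefore also given after rescaling below. Placements of single transcripts against other strains are on the deposited levels alone. Replicate heterozygote arrays correlated at 0.992 and replicate homozygote arrays at 0.993, with a median gap between replicates of 0.20 in both genotypes. The table gives FlyBase transcript identifiers without gene names, and 44 of the identifiers occur in the synonym text of the gene table used here, 17 of them under exactly 1 gene. The gene names below rest on that text and not on an annotation of the array. The levels of tefu, of immune genes and of the markers of neurons, glia, photoreceptors, fat body, hemocytes, muscle and germ line are therefore not analysed here, and the label "head" was not checked against markers.

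Over the whole transcriptome, most differences between homozygotes and heterozygotes were small: 90% of transcripts had log2 fold changes between -0.49 and 0.53. The median over all transcripts was 0.0041, but the arrays were normalized, and that step alone can bring the median near 0. A transcript is said to have risen or fallen when limma, fitted over all 20 arrays, gave a Benjamini-Hochberg adjusted p under 0.05: 246 transcripts did so, 1.59% of those tested, with 147 rises (0.95%) and 99 falls (0.64%). The median rise was 0.98 and the median fall -1.03 on the log2 scale, about the same size in both directions. All 147 rises and all 99 falls had non-overlapping arrays, but so did 43.4% of all transcripts, which is why separation of 2 arrays from 2 was not taken as a call.

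**Figure D1:**
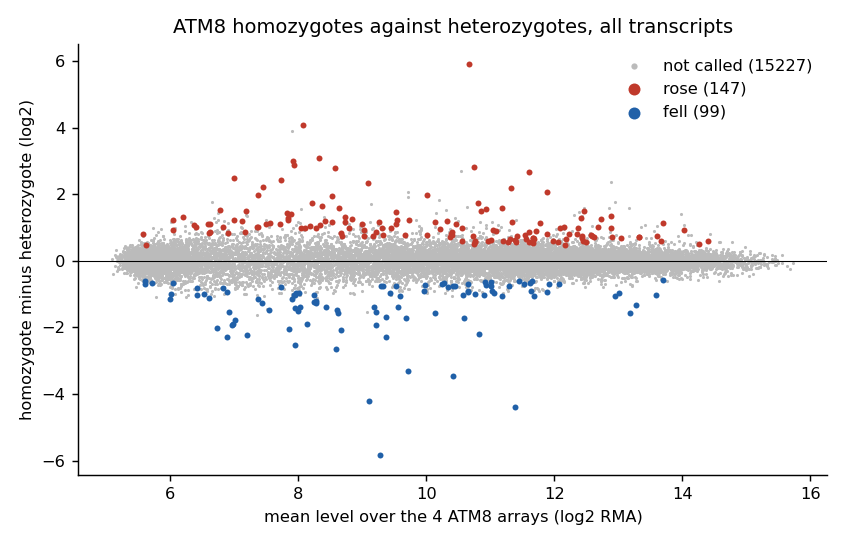
Homozygote minus heterozygote difference (log2, y axis) against the mean level over the 4 ATM8 arrays (log2 RMA, x axis) for all 15473 transcripts, 1 point each. The 147 rises (red) and 99 falls (blue) spread over most of the range of levels, with few falls at the bright end.

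Rises and falls were not spread alike over the range of levels. The transcripts were divided into 4 equal bins by their mean level in the ATM8 arrays. The second dimmest bin held the most calls, with 56 rises (1.45% of its transcripts) and 48 falls (1.24%). The brightest bin, above 12.35, held 25 rises (0.646%) but 6 falls (0.155%). The dimmest bin, below 7.53, held 24 rises (0.62%) and 21 falls (0.543%). No detection call comes with these levels, and fold changes that start or end near the dim end have no measured floor. The heterozygote level lay under 7.53 for 37 of the 147 rises and the homozygote level for 37 of the 99 falls. By construction, 25% of all transcripts had a mean level under 7.53. In 2 falls a transcript went from above the median level of all transcripts (10.61) to the dimmest bin, and 0 transcripts made the reverse passage.

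Large changes were few. At least a 2-fold difference was measured for 208 transcripts (1.34%), of which 69 were called as rises (0.446% of all transcripts) and 56 as falls (0.362%). At least a 4-fold difference was measured for 32 transcripts (0.207%), of which 14 were called as rises and 14 as falls (0.0905% each). The other 4-fold differences did not pass the test. Replicate agreement among called transcripts resembled that of all transcripts: the median gap between homozygote replicates was 0.18 for rises and 0.21 for falls, and between heterozygote replicates 0.18 and 0.19.

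The count of calls rested on every ATM8 array. The number of called transcripts was 132 without heterozygote replicate 1, 98 without heterozygote replicate 2, 114 without homozygote replicate 1 and 121 without homozygote replicate 2. Rises outnumbered falls in 3 of these fits, and without heterozygote replicate 2 there were 47 rises and 51 falls. Of the 147 rises 33, and of the 99 falls 27, were called in each of the 4 fits, the smallest of them with log2 changes of 0.97 and 0.90 in size.

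The largest rise was that of FBtr0080464, for which no gene name is used here. Its level was 7.98 and 7.43 in the heterozygotes and 13.23 and 14.03 in the homozygotes. Both homozygote arrays were thus far above both heterozygote arrays, and the mean difference was 60.6-fold (log2 fold change 5.92 ± 0.36, SE, limma adjusted p = 1.2e-07). In the other 16 arrays it stayed between 6.45 and 8.75, so the heterozygotes lay inside the range of the other strains and the homozygotes outside it. Its log2 fold change was 0.44 ± 0.36 with the Repo driver, 0.07 ± 0.25 with Elav and 0.21 ± 0.36 with ElavC155, and each of these effects differed from the ATM8 effect (limma interaction, adjusted p = 1.4e-05, 2.1e-06 and 4.2e-05).

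FBtr0073937 showed the second largest rise and the closest replicates of the 4 transcripts named here. The heterozygote arrays read 6.02 and 6.04 and the homozygote arrays 10.20 and 10.03, for a log2 difference of 4.08 ± 0.22 (limma adjusted p = 3.5e-08). The heterozygote level is dim, so the fold rests on a value near the lower end of the scale. The other 16 arrays ran from 5.20 to 7.09. The highest of them was a Repo-ATMi array at 7.09, with the second Repo-ATMi array at 6.28 against 5.96 and 5.95 in Repo-GAL4. That glial difference of 0.73 ± 0.22 did not pass (limma adjusted p = 0.081), and it was smaller than the ATM8 effect by 3.36 ± 0.31 (interaction, adjusted p = 1.4e-05).

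FBtr0082093 fell most. Its level was 12.04 and 12.34 in heterozygotes and 6.79 and 5.92 in homozygotes, lower by a mean log2 difference of -5.84 ± 0.26 (57.2-fold, limma adjusted p = 3.9e-09). The 4 Repo arrays, at 11.79 to 12.40, and the 8 Elav arrays, at 12.28 to 13.45, lay beside the heterozygotes. ElavC155-GAL4 controls were lower, at 10.80 and 10.56, and ElavC155-ATMi flies lowest, at 5.06 and 4.85. The log2 fold change with ElavC155 was -5.73 ± 0.26, and the ATM8 effect minus the ElavC155 effect came to -0.11 ± 0.37 (SE, interaction, adjusted p = 0.97). The ATM8 effect differed from the Repo effect by -5.41 ± 0.37 (adjusted p = 1.8e-06) and from the Elav effect by -5.31 ± 0.32 (adjusted p = 1.7e-07).

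FBtr0082765 was the second largest fall, and the one with the widest spread between homozygotes. The heterozygote arrays read 13.86 and 13.28 and the homozygote arrays 10.14 and 8.23, a log2 difference of -4.39 ± 0.38 (20.9-fold lower, limma adjusted p = 8.7e-06). This SE uses the spread within all 8 genotypes, and replicates lay closer in each of the others than in homozygotes. Fitted to the 4 ATM8 arrays alone, the SE was 0.53 (limma adjusted p = 0.013). All 16 other arrays were higher than both ATM8 genotypes, at 14.38 to 14.98. The levels thus stepped down from the other strains to the heterozygotes and again to the homozygotes. The log2 fold change in the knockdowns was -0.33 ± 0.38 with Repo, -0.15 ± 0.27 with Elav and -0.09 ± 0.38 with ElavC155, and each differed from the ATM8 effect (interaction, adjusted p = 0.00057, 0.00012 and 0.00065).

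**Figure D2:**
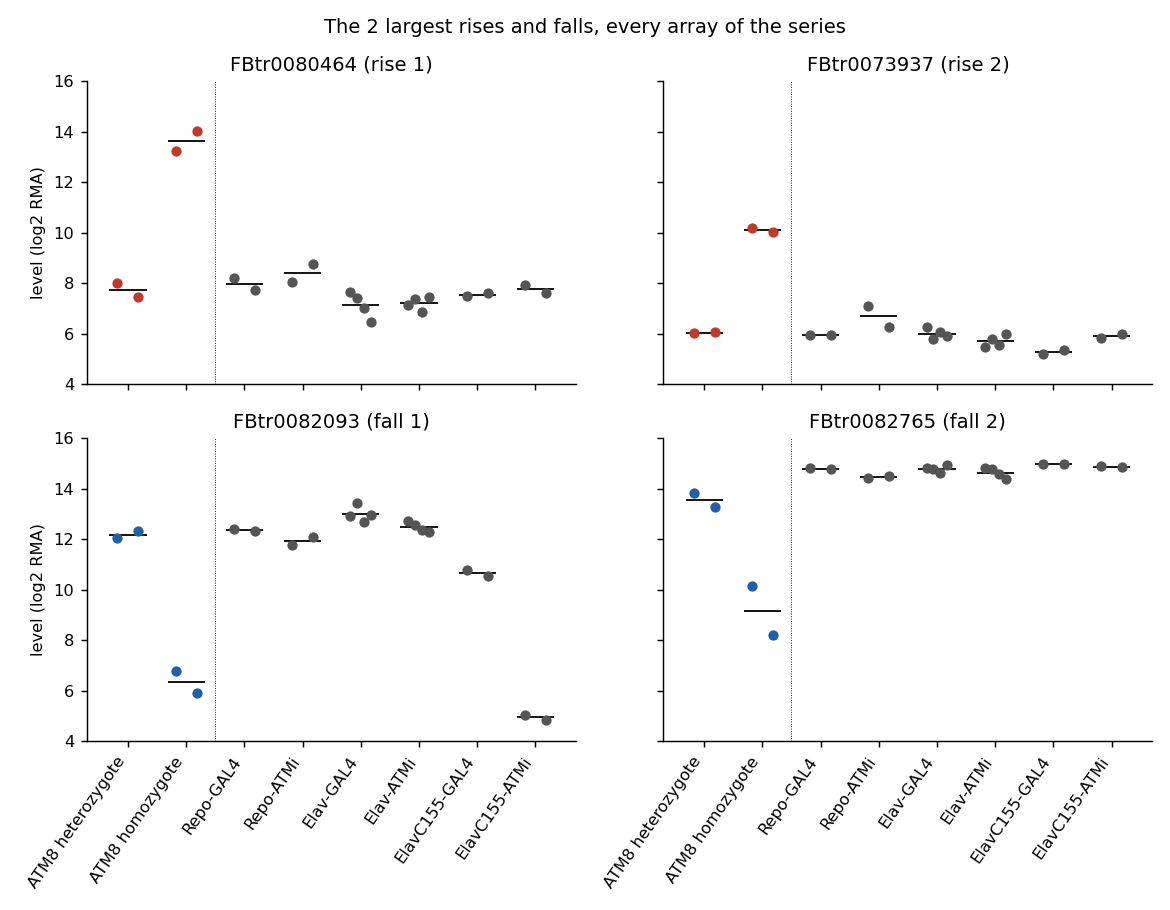
Level (log2 RMA, y axis) of the 2 largest rises and 2 largest falls in each of the 20 arrays, by genotype. Points are arrays and bars are genotype means, with ATM8 arrays in colour to the left of the dotted line. FBtr0080464 and FBtr0073937 are high in homozygotes alone, FBtr0082093 is low in homozygotes and in ElavC155-ATMi flies, and FBtr0082765 is lower in heterozygotes than in all 16 other arrays and lower still in homozygotes.

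The 10 largest rises spanned log2 fold changes of 2.43 to 5.92 (limma adjusted p up to 0.037). On the deposited levels, the homozygotes alone lay outside the range of the 16 other arrays in 8 of them. The others were the fifth, where both ATM8 genotypes lay above that range, and the eighth, where neither lay outside it. Homozygotes alone lay outside for 44.9% of all 147 rises and 9.84% of all transcripts, and ranking by size of rise favours that position. None of these 10 rises passed the test in a knockdown (lowest limma adjusted p = 0.059, for the eighth with the Repo driver, at 1.40 ± 0.39). Of all transcripts, 5.64% passed in at least 1 knockdown, so few would be awaited among 10. The ATM8 effect differed from all 3 knockdown effects at ranks 1, 2, 3, 5, 7 and 9 (limma interaction). At ranks 4, 6, 8 and 10 a difference from the Repo effect was not resolved (adjusted p = 0.17, 0.27, 0.35 and 0.70). An unresolved difference does not make the effects alike. At rank 4 the Repo effect was 0.07 ± 0.68 and the difference 2.91 ± 0.96. Its spread, estimated over all 20 arrays, includes Elav-GAL4 arrays at 8.79, 6.77, 5.84 and 5.82. Ranks 6 and 10 differed from no knockdown effect (adjusted p = 0.14 and 0.13 for Elav, 0.082 and 0.60 for ElavC155).

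The 10 largest falls, from -2.23 to -5.84, formed a more mixed group. In 3 of them neither ATM8 genotype was outside the range of the other arrays, in 4 both were, and in 3 only the heterozygotes were. Over all 99 falls these shares were 33.3%, 14.1% and 20.2%, and over all transcripts 74.5%, 10.7% and 4.91%, on the deposited levels. The fourth read 12.16 and 12.15 in heterozygotes, 9.09 and 8.29 in homozygotes and 13.63 to 14.84 elsewhere, again with the heterozygotes between the other strains and the homozygotes. The fifth went the other way: it read 11.32 and 11.42 in heterozygotes and 8.19 and 7.93 in homozygotes, while the other 16 arrays stayed between 6.02 and 7.64. In the seventh, at 9.08 and 9.37 in heterozygotes and 6.69 and 6.67 in homozygotes, the homozygotes lay within the other strains' range of 6.12 to 7.52 and the heterozygotes above it. These 3 transcripts were singled out after their values were seen.

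Of the 10 largest falls 3 also changed in a knockdown, where 5.64% of all transcripts were called in at least 1. The first fell with ElavC155 as given above. The third, at 11.33 and 11.09 in heterozygotes and 7.38 and 6.60 in homozygotes, fell by 5.40 ± 0.26 with Elav (limma adjusted p = 3.4e-09) and by 5.46 ± 0.37 with ElavC155 (adjusted p = 8e-07), whereas with Repo the difference was -1.12 ± 0.37 (adjusted p = 0.11). The sixth, at 9.85 and 9.99 in heterozygotes and 7.68 and 6.84 in homozygotes, rose with the Repo driver by 1.77 ± 0.23 (adjusted p = 0.00022), the opposite direction, and the effects differed by -4.43 ± 0.33 (interaction, adjusted p = 1.8e-06).

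**Figure D3:**
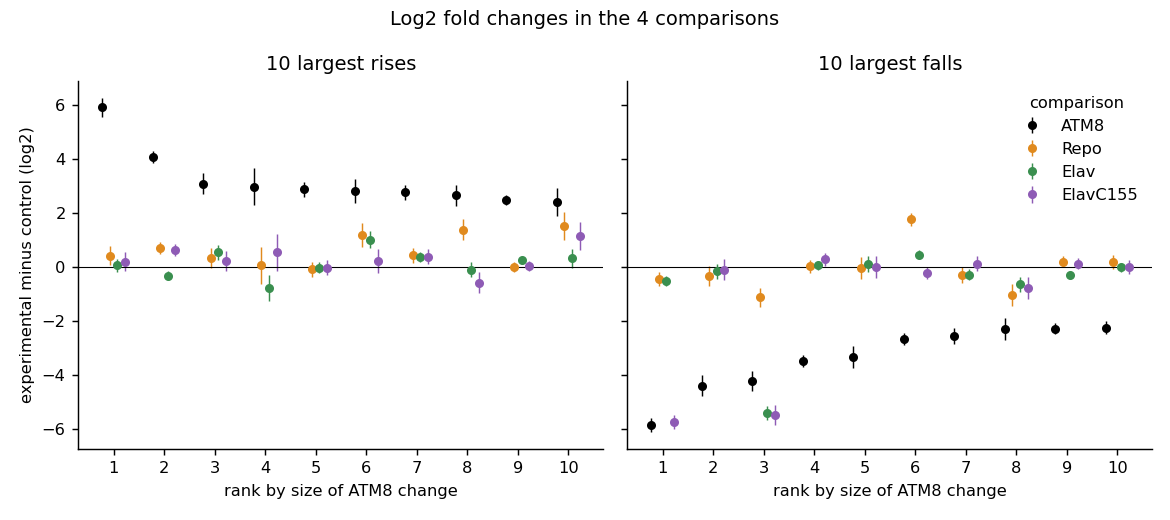
Log2 fold change with its standard error (y axis) of the 10 largest rises and 10 largest falls in ATM8 homozygotes (x axis, rank), in the ATM8 comparison (black) and in the Repo, Elav and ElavC155 knockdowns. The knockdown values lie near 0 for most ranks, with the first fall in ElavC155 and the third fall in both neuronal knockdowns at -5.40 to -5.73.

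A contrast of 2 genotypes does not say which of them is unusual, so the changed transcripts were placed against the other strains. These strains differ from both ATM8 genotypes in culture temperature, background and driver, which cannot be told apart here. Against the 4 Repo arrays, on the deposited levels, both homozygote arrays lay above all 4 for 121 of 147 rises (82.3%), where 27.3% of all transcripts did so, and both heterozygote arrays lay below all 4 for 41 (27.9%, against 20.2% of all transcripts). For the 99 falls the homozygotes lay below all 4 Repo arrays in 59 (59.6%, against 22.2% of all transcripts) and the heterozygotes above all 4 in 44 (44.4%, against 23.9%). With each array centred on its median, which removes the lower Repo medians, the shares for rises became 72.8% against 19.1% (homozygotes above) and 34.0% against 28.1% (heterozygotes below), and for falls 59.6% against 32.1% (homozygotes below) and 38.4% against 16.4% (heterozygotes above). Over all transcripts, centring thus turned the balance of homozygotes from more often above the Repo arrays to more often below them. The transcripts were selected for a difference between the ATM8 genotypes, so some excess over all transcripts is built in, and no test is attached.

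The departure of the rises lay mainly on the side of the homozygotes and that of the falls on both sides. Relative to the mean of the 4 Repo arrays, the median rise sat at -0.03 in heterozygotes and 0.97 in homozygotes, and the median fall at 0.33 in heterozygotes and -0.64 in homozygotes. After median centring these values were -0.14 and 0.83 for rises and 0.22 and -0.78 for falls, beside -0.08 and -0.11 for all transcripts. The homozygote mean was farther from the Repo mean than the heterozygote mean for 112 rises (76.2%) and 59 falls (59.6%), beside 58.4% of all transcripts. The share for falls is thus near that of transcripts in general.

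Set against all 16 other arrays, both homozygote arrays lay above every one of them for 78 rises (53.1%, against 6.98% of all transcripts) and both heterozygote arrays below every one for 26 (17.7%, against 11.4%). After quantile normalization of the 20 arrays the first of these became 64.6% against 12.1%, and the second came to 22 rises against 7.81% of all transcripts. For falls, the homozygotes lay below all 16 in 44 (44.4%, against 13.6%) and the heterozygotes above all 16 in 22 (22.2%, against 4.24%), which became 45.5% against 10.1% and 26.3% against 8.39%. Both genotypes lay outside on the same side, with the homozygotes farther, for 10 rises (6.8%) and 12 falls (12.1%), beside 3.2% of all transcripts. Neither genotype left the range of the other strains for 45 rises (30.6%) and 33 falls (33.3%), beside 74.5% of all transcripts.

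**Figure D4:**
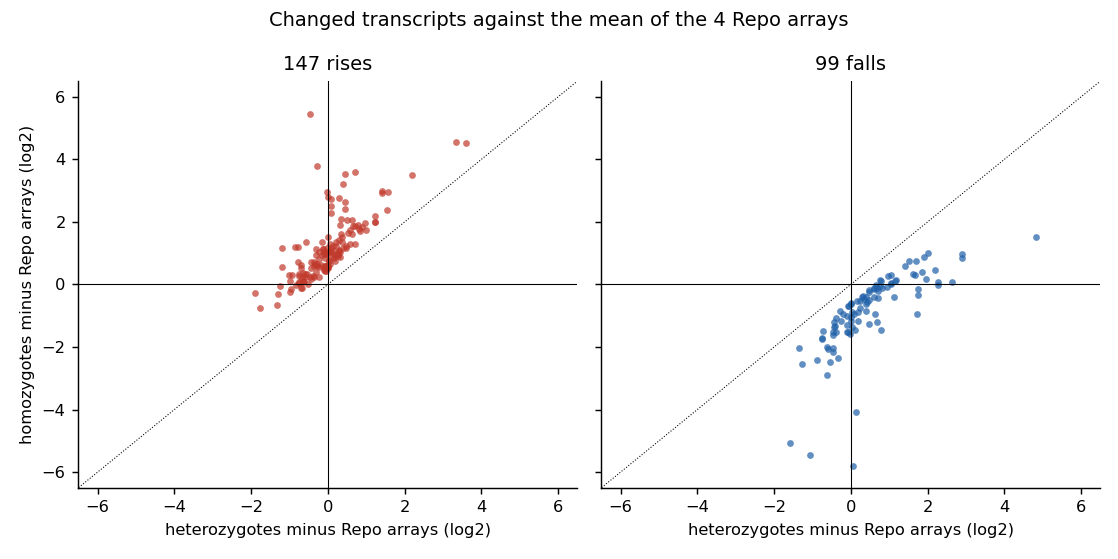
Homozygote mean minus the mean of the 4 Repo arrays (log2, y axis) against heterozygote mean minus the same (log2, x axis), for the 147 rises (left) and 99 falls (right), 1 point per transcript. The dotted line marks equal levels in both genotypes, the rises cluster around 0 on the x axis (median -0.03) and the falls extend to positive x values (median 0.33).

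The changes were then looked up in the knockdowns, which share no array with the ATM8 comparison but share the estimate of spread. Of the 147 rises, 32 were called in at least 1 of the 3 knockdowns (21.8%), and of the 99 falls, 17 (17.2%), where 5.64% of all transcripts were. The other 115 rises and 82 falls were called in none. With the Repo driver, 30 of the ATM8 rises also rose, 20.4% of the ATM8 rises and 6.65% of the Repo rises, where 2.91% of all transcripts rose, and 0 fell. Among the ATM8 falls, 4 also fell with the Repo driver (4.04% of the ATM8 falls and 1.93% of the Repo falls, where 1.34% of all transcripts fell) and 6 rose (6.06%). With the Elav driver, which raised 1.01% and lowered 0.608% of all transcripts, 2 of the ATM8 rises rose and 1 fell, and 5 of the falls fell. With ElavC155, which raised 0.33% and lowered 0.174%, 2 of the ATM8 rises rose and 5 of the falls fell, the latter 5.05% of the ATM8 falls and 18.5% of the 27 ElavC155 falls.

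Whether the ATM8 effect differed from each knockdown effect was tested with interaction contrasts. Over all transcripts, the ATM8 effect differed from the Repo effect for 282 (1.82%), from the Elav effect for 236 (1.53%) and from the ElavC155 effect for 115 (0.743%). Among the 147 rises these numbers were 39, 82 and 32, with the ATM8 effect the more positive one in all but 1 of the Repo differences. Among the 99 falls they were 42, 42 and 29, with the ATM8 effect the more negative one in each. Since the rises and falls were selected on the ATM8 effect, which enters each difference, these shares say only how many were resolved. The effect differed from all 3 knockdown effects for 18 rises and 21 falls, and of these 17 and 19 were called in no knockdown. Over all transcripts 47 differed from all 3 effects, of which 37 were called in no knockdown, and 15016 (97.0%) differed from none. For 57 rises and 42 falls it differed from none of the 3, so those transcripts cannot be called particular to the ATM8 homozygotes. Without 1 ATM8 array, which leaves 1 array in a genotype, the Repo, Elav and ElavC155 counts were all lower.

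Among the 17 transcripts with a gene name, 0 passed in limma and 2 reached an unadjusted p under 0.05, as did 13.4% of all transcripts. Their log2 fold changes ran from -0.66 to 0.51 with a median of -0.05, and 6 of the 17 (4 higher, 2 lower in homozygotes) had non-overlapping arrays, a separation that 43.4% of all transcripts had. mio and Wdr24 encode subunits of GATOR2, a complex that relieves inhibition of TORC1, the kinase complex that couples growth to amino acid supply. mio read 12.16 and 11.69 in heterozygotes and 11.40 and 11.14 in homozygotes, a log2 difference of -0.66 ± 0.18 (limma adjusted p = 0.080). On the deposited levels the homozygotes lay within the range of the Repo arrays, 11.06 to 11.52, and the heterozygotes above it. The range of all 16 other arrays was wider, 11.06 to 12.06, and held heterozygote replicate 2 but not replicate 1. Wdr24 read 12.15 and 12.04 in heterozygotes and 11.83 and 12.12 in homozygotes, which overlap (-0.12 ± 0.12 on the log2 scale, adjusted p = 0.74).

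LanA encodes a laminin alpha chain of the basement membrane. It read 11.14 and 11.39 in heterozygotes and 11.66 and 11.89 in homozygotes, a log2 difference of 0.51 ± 0.21 (limma adjusted p = 0.29). On the deposited levels the heterozygotes lay below all 16 other arrays (11.53 to 12.67) and the homozygotes within that range. The position after rescaling was not worked out for this gene. Against the 4 Repo arrays alone (11.74 to 12.13), homozygote replicate 1 lay below the range as well. alpha-Spec, the spectrin alpha chain of the membrane skeleton, read 13.71 and 13.66 in heterozygotes and 13.43 and 13.51 in homozygotes, without overlap, differing by -0.21 ± 0.14 on the log2 scale (adjusted p = 0.55).

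Of the chromatin genes, HDAC3, a histone deacetylase, read 11.64 and 11.56 in heterozygotes and 11.82 and 12.03 in homozygotes (0.32 ± 0.19, limma adjusted p = 0.50). The homozygotes and, narrowly, heterozygote replicate 1 were above the Repo arrays, which ran from 10.79 to 11.60 on the deposited levels. All 16 other arrays ran from 10.79 to 12.05, a range that held both homozygote arrays. SuUR, which slows replication of late-replicating chromatin, had a log2 fold change of 0.14 ± 0.15, kis, a chromatin remodeller of the CHD family, one of -0.14 ± 0.17, and His4r, the replication-independent histone H4 gene, one of 0.15 ± 0.27. The nucleolar gene sle gave 0.31 ± 0.18 (adjusted p = 0.49), with homozygotes at 10.72 and 10.86 above heterozygotes at 10.55 and 10.41. None of these 5 genes passed.

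The other named genes had small differences relative to their replicate spread. Uba1, the ubiquitin-activating enzyme, had a log2 fold change of -0.10 ± 0.18, and rdx, a substrate adaptor of a Cullin-3 ubiquitin ligase, one of -0.05 ± 0.18. The transporter genes Fatp1, for fatty acids, and NaPi-III, for phosphate, gave 0.01 ± 0.21 and 0.20 ± 0.20, the latter with homozygotes at 12.67 and 13.46 on either side of the heterozygotes at 12.71 and 13.02. The kinase gene Dyrk3 gave -0.12 ± 0.21, fend -0.05 ± 0.13, CG16974 -0.14 ± 0.15 and CG31178 -0.49 ± 0.35, CG31178 being the dimmest of the 17.

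**Figure D5:**
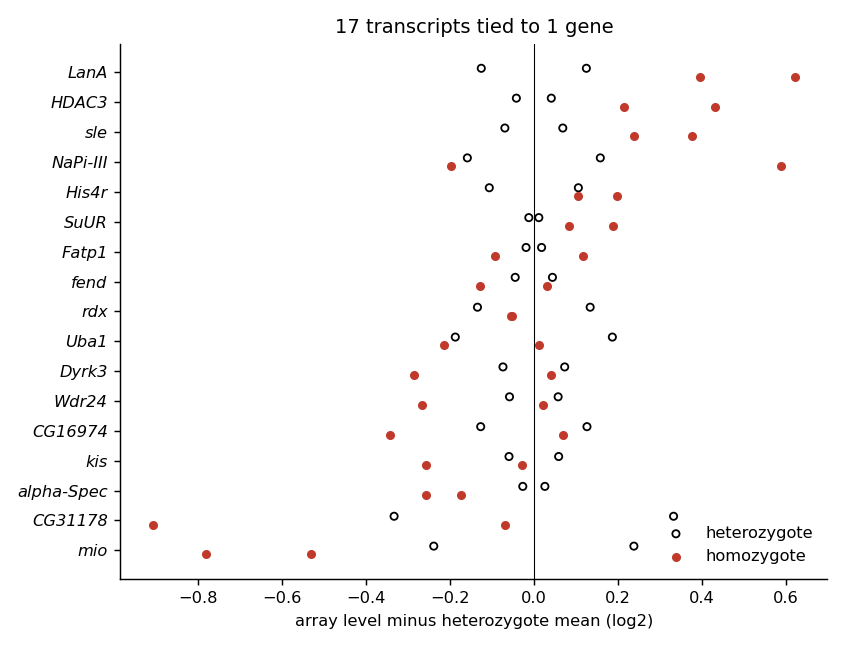
Level in each of the 4 ATM8 arrays minus the heterozygote mean (log2, x axis) for the 17 transcripts tied to 1 gene (y axis), with heterozygotes as open and homozygotes as filled circles. The homozygotes lie clear of the heterozygotes for 6 genes, among them mio on the low side and LanA and HDAC3 on the high side.

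A further 27 identifiers stood in the synonyms of several genes. For 26 of them the synonyms name an upstream and a main reading frame of 1 transcript, so that 1 level stands for all genes on it. Of the 27, 0 passed in limma and 1 reached an unadjusted p under 0.05, and their log2 fold changes ran from -0.24 to 0.56 with a median of 0.12. That 1 transcript, shared by Polr3K, for an RNA polymerase III subunit, and Tcs1, for a tRNA-modifying enzyme, read 10.39 and 10.29 in heterozygotes and 10.58 and 11.22 in homozygotes (0.56 ± 0.25, adjusted p = 0.34). All 4 of these arrays were, on the deposited levels, above the 16 others, which reached 9.83. The transcript shared by Rad1, a subunit of the checkpoint clamp loaded at damaged DNA, and Sws1 was picked for that role: it read 7.88 and 7.58 in heterozygotes and 7.93 and 8.23 in homozygotes (0.35 ± 0.20, adjusted p = 0.49).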

How the data were processed

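Total RNA from heads was hybridised to single-colour (Cy3) arrays, 1 array per sample, as the labels' protocols state. What the authors deposited are log2 levels from RMA, which the submitters' processing notes name without a version, with 1 column per array and 0 missing values. That they are log2 was read from the values. How many probes each transcript has and which annotation release was used are not known here. The labels call replicates biological without saying how they were made, so p-values reflect only the spread among these arrays, which may be technical.

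limma 3.58.1 (R 4.3.3, lmFit and eBayes, two-sided) was fitted to 20 arrays with 1 mean per genotype (12 residual and 3.79 prior degrees of freedom), and p-values were adjusted by Benjamini-Hochberg over 15473 transcripts. The fit was also run on simulated levels holding known changes, as a test.

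The rule for named transcripts took the 10 largest rises and 10 largest falls with non-overlapping arrays, printed 2 identifiers per direction, and named each row tied to 1 gene. The members, gene lists (16 lists of 200 entries, of which 0 had a row) and tests were chosen with earlier results of these data known. Alternatives changed the arrays fitted, normalization, dim filter (25%), prior, array weights and replicate block.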

Additional observations from a re-analysis of the deposited data

Results flagged for a closer look

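Effects that differed between the ATM8 comparison and a knockdown, tested as limma interactions, were looked at again. For FBtr0080464 the ATM8 effect exceeded the Repo effect by 5.48, the Elav effect by 5.85 and the ElavC155 effect by 5.71 on the log2 scale. For FBtr0073937 the differences were 3.36, 4.39 and 3.46. For FBtr0082093 the ATM8 effect differed by -5.41 from the Repo effect and by -5.31 from the Elav effect, but the difference from ElavC155 was not among those that passed. For FBtr0082765 the differences were -4.06, -4.23 and -4.29. Over all transcripts, 282 differed from the Repo effect, 236 from the Elav effect and 115 from the ElavC155 effect. The array medians ran from 10.45 to 10.52 in Repo arrays, 10.59 to 10.63 in ATM8 arrays and 10.84 to 10.93 in the neuronal driver arrays, and after median centring the counts were 294, 238 and 116. No group of 4 arrays had a member standing apart for the 4 transcripts named here.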

How the results depend on the processing

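The 246 calls became 119 in a fit of the 4 ATM8 arrays alone, which has fewer samples (81 shared with the 246), and 98 to 132 when 1 ATM8 array was left out (83 to 112 shared). They were 177 to 337 under the other settings. With the intensity trend and robust prior, 9 of the 10 largest rises and all 10 largest falls stayed called. Without 1 ATM8 array, not all of the 10 largest rises did, and in most of these fits not all of the 10 largest falls did either. The count of differences from the Elav effect was 114 to 139, and from the ElavC155 effect 66 to 80, without 1 ATM8 array. Of the 13 settings, 27 rises and 22 falls stayed called in every one that tested them. So did all 4 transcripts named by identifier (FBtr0073937 in 12, being too dim for the filter), with log2 fold changes of 5.52 to 6.32, 4.00 to 4.23, -6.27 to -5.40 and -5.34 to -3.43. mio passed after quantile normalization (-0.72, adjusted p = 0.044) and under no other setting (adjusted p up to 0.38), with -0.89 to -0.42 without 1 array, and CG31178 ran from -0.91 to -0.070. A fit with replicate number as block called 289 transcripts, 214 of them shared with the 246. The deviations of same-numbered arrays correlated at 0.262, but 2 numbers cannot establish pairing. The 4 counts of transcripts lying beyond all 16 other arrays stayed within 1.5 times after quantile normalization or median centring, chosen after seeing the data (78 became 95 and 89), while the shares of all transcripts moved more: homozygotes above went from 6.98% to 12.1% and 10.2%, and heterozygotes above from 4.24% to 8.39% and 7.14%. Some uncalled gene values turned in sign: Fatp1 was -0.015 after median centring, and without 1 array the values ran from -0.34 to 0.070 for CG16974, -0.27 to 0.021 for Wdr24, -0.28 to 0.041 for Dyrk3, -0.29 to 0.086 for Uba1, -0.19 to 0.081 for rdx, -0.13 to 0.031 for fend, -0.092 to 0.12 for Fatp1 and -0.20 to 0.59 for NaPi-III. The 2 arrays a genotype limit the precision, and levels have no measured floor at the dim end.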
